A study of Mus musculus with 72 samples.

Results

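The transcriptome of livers that lacked the clock gene Bmal1 was compared with that of control livers at 6 h after lights on (ZT6) in mice raised without any microbes. The comparison took the 3 libraries labelled L-Bmal1-KO GF ZT6 and the 3 labelled WT GF ZT6, which are 6 of the 72 libraries of the series. LKO mice carried Bmal1 fl/fl, a Bmal1 gene flanked by loxP sites, together with Albumin-Cre, and WT mice carried Bmal1 fl/fl alone, so the floxed allele was shared by both groups. Cre was present in LKO mice only, so its presence and the loss of Bmal1 cannot be told apart. All mice were C57BL/6J males, individually housed from an age of 10 to 14 weeks, and the germ-free (GF) animals lived in isolators. The series also holds the same genotypes with a microbiota under specific pathogen-free (SPF) conditions, and ZT2, ZT10, ZT14, ZT18 and ZT22 for every group, with 3 libraries per group and time. The albumin promoter drives Cre in hepatocytes, and other liver cell types keep Bmal1, so a whole liver of an LKO mouse is a mixture. In such bulk tissue, fewer cells of a type and less RNA per cell cannot be told apart.

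BMAL1 pairs with CLOCK or NPAS2, and the pair binds E-box elements and switches on the Period, Cryptochrome, Rev-erb and D-box factor genes. PER and CRY proteins then block the pair that made them, while REV-ERB proteins repress genes with a ROR element, Bmal1 among them, and ROR proteins activate the same genes. In the liver these loops time the use of glucose, fat, bile acids and foreign compounds. In mice, REV-ERB proteins are abundant in the light phase. Microbes in the gut send metabolites to the liver and alter the same pathways, and the question addressed here was what the loss of the liver clock does when they are absent.

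The 6 libraries held 18014398 to 19250977 counts, and a gene was called changed at an adjusted p under 0.05 by the quasi-likelihood test of edgeR, its p-values adjusted after Benjamini and Hochberg, with a model of the 12 libraries of ZT6. Levels are given as counts per 1000000 (CPM), and differences as log2 fold change of LKO against WT with its standard error, so that a positive value is higher in LKO. GF WT replicate 3 went against its label. Of the 13609 genes tested, 358 differed more than 2-fold in it from both fellow libraries, against 23 to 36 genes for each of the other 5 libraries. Over the 500 most variable genes its mean absolute log2 difference to the other GF WT libraries of ZT6 was 0.949, the 11th of 12 WT groups in order of likeness, and the nearest group was SPF WT ZT14 at 0.539. For replicates 1 and 2 their own group was the 2nd nearest, at 0.547 and 0.613. The library was kept as labelled, and results without it are given for a selection of the counts, calls and sizes below. Sizes given only with it can depend on it, above all where its CPM stands apart from replicates 1 and 2.

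Between LKO and WT livers, 1587 of 13609 genes (11.7%) were called changed at ZT6 in GF mice, 761 higher (5.59%) and 826 lower (6.07%) in LKO livers. Without GF WT replicate 3 the number was 1351 of 13944 (9.69%), 665 higher (4.77%) and 686 lower (4.92%). Of the 1587 genes, 1110 passed again without that library, 536 of them higher and 574 lower, with 0 of opposite sign, and 241 genes passed only without it. The median size of the change among called genes was 0.896 on the log2 scale, with quartiles of 0.594 and 1.623. A change of at least 2-fold was called for 720 genes (5.29%), of at least 4-fold for 273 and of at least 8-fold for 114, of which 60 were higher and 54 lower. The CPM ranges of the 3 WT and 3 LKO libraries did not overlap for 1560 of the called genes (98.3%), against 27.7% of all genes tested. The calls were made on the same libraries, so this separation is no added support for them. Protein-coding genes made up 95.9% of the lower genes, 84.5% of the higher genes and 90.8% of those tested.

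The clock machinery itself was changed on both of its arms. Of 26 clock genes tested in 4 lists, 8 were higher and 8 lower (61.5% called, against 11.7% of all genes), and without GF WT replicate 3 the numbers were 7 and 9. Arntl, Npas2, Clock and Cry1 were above WT, and the Rev-erb genes, Per3, Ciart, Bhlhe41 and the D-box activators were below it.

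Bmal1, listed as Arntl on chromosome 7 of GRCm38 (113207465 to 113314126), is the gene that was deleted. It measured 1.62, 2.43 and 8.21 CPM in WT replicates 1 to 3, and 11.1, 12.6 and 9.66 CPM in the LKO libraries. All LKO values lay above all WT values, and replicate 3 was the nearest of the WT livers. Reads are counted over the whole gene, transcripts that have lost the floxed part included, so the level of Arntl does not check the deletion. The difference was 1.44 ± 0.43 (adjusted p = 0.0471), and 2.46 without GF WT replicate 3 (adjusted p = 9.27e-05). Leaving out any 1 of the other 5 libraries ended the call, with values from 1.05 to 1.53 and adjusted p from 0.0759 to 0.135.

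Npas2, the paralog of Clock that can pair with BMAL1 (chromosome 1, 39193731 to 39363236), gave 0.359, 0.187 and 0.115 CPM in WT and 28.7, 22.1 and 30.7 CPM in LKO livers. It was close to silent in every WT liver of this hour and expressed in every LKO liver, with a difference of 6.91 ± 0.34 (adjusted p = 1.68e-07). Clock, the usual partner of BMAL1, rose from 57.3, 63.3 and 76.8 CPM to 101, 101 and 114 CPM (0.68 ± 0.12, adjusted p = 0.00318). Arntl2, a paralog of Bmal1, had a value of 0.34 and did not pass (adjusted p = 0.569).

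Both Rev-erb genes, repressors that act through the ROR element, were low in LKO livers. Nr1d1, on chromosome 11 (98767932 to 98775333), measured 50.5, 49.2 and 9.36 CPM in WT and 3.5, 2.33 and 3.08 CPM in LKO livers. The groups did not overlap even with replicate 3, whose value stood apart from its fellows (-3.62 ± 0.51, adjusted p = 0.000484, and -4.07 without it). Nr1d2 fell from 125, 126 and 88.7 CPM to 13.7, 16.6 and 13.9 CPM (-2.95 ± 0.20, adjusted p = 1.34e-06). Rora did not pass (0.15, adjusted p = 0.517), and Rorb had 0 counts in all 6 libraries.

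Of the 14 repressors tested, 3 were higher and 3 lower (21.4% each, against 5.59% and 6.07% of all genes). Cry1, whose protein blocks the BMAL1 complex, measured 4.67, 5.66 and 27.8 CPM in WT and 86.1, 64.6 and 73.2 CPM in LKO livers, a rise of 2.54 ± 0.50 (adjusted p = 0.00478) that came to 3.85 without replicate 3. Ciart, a repressor of the BMAL1 complex, measured 6.17, 8.77 and 4.65 CPM in WT and 0.0538, 0.104 and 0.0540 CPM in LKO livers (-6.41 ± 0.87, adjusted p = 0.000381). Bhlhe41, which competes for E-boxes, had 254 counts over the WT livers and 1 over the LKO livers, a ratio of WT to LKO of 253 with an exact counting interval of 44.9 to 10019 (adjusted p = 1.22e-05). Per3 fell from 16.1, 13.3 and 19.9 CPM to 3.5, 3.52 and 2.75 CPM (-2.34 ± 0.25, adjusted p = 7.14e-05).

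The remaining repressors moved less. Per1 (-0.36, adjusted p = 0.621) and Per2 (-0.82, adjusted p = 0.147) did not pass at this hour, in contrast to Per3, although the difference between them was not tested. Per2 did pass with no filter on low counts (-0.82, adjusted p = 4.755e-06). Cry2 had a value of 0.44 (adjusted p = 0.0747) and Bhlhe40 of -0.76 (adjusted p = 0.0632). Both passed with DESeq2 (adjusted p = 0.0467 and 0.0198) and with no filter on low counts, Cry2 also without LKO replicate 3 (adjusted p = 0.0305) and Bhlhe40 without LKO replicate 1 (adjusted p = 0.0491). Fbxl21, which targets CRY proteins, rose by 0.65 ± 0.15 (adjusted p = 0.0113), a call lost when only the GF libraries of ZT6 were fitted (adjusted p = 0.0512, or 0.0573 without replicate 3). Timeless rose by 0.81 ± 0.21 (adjusted p = 0.0229), a call lost without GF WT replicate 1 or 3 or LKO replicate 1 or 2 (adjusted p from 0.0558 to 0.0818). Nr0b2, a corepressor of nuclear receptors, was at -0.81 (adjusted p = 0.122) and passed without replicate 3 (-1.08, adjusted p = 0.0303) and with no filter on low counts (-0.81, adjusted p = 3.48e-06). Csnk1d (0.27) and Csnk1e (-0.43), kinases of PER proteins, did not pass.

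The PAR bZIP factors DBP, TEF and HLF activate genes through D-boxes, and NFIL3 represses the same sites. Dbp, a direct E-box target, measured 59.4, 42.9 and 16.4 CPM in WT and 3.01, 2.80 and 2.64 CPM in LKO livers. The LKO values were almost equal and lay below the lowest WT liver by a wide margin (-3.81 ± 0.44, adjusted p = 0.000113). Tef fell from 218, 181 and 176 CPM to 117, 107 and 101 CPM (-0.83 ± 0.15, adjusted p = 0.00265), and Hlf by 0.79 on the log2 scale (adjusted p = 0.0102). Nfil3 rose, from 10.0, 9.02 and 19.6 CPM to 37, 32.5 and 22.2 CPM (1.24 ± 0.34, adjusted p = 0.0318, and 1.68 without replicate 3). The call on Nfil3 was lost without LKO replicate 1 or 2 or WT replicate 1 or 2, with adjusted p from 0.0887 to 0.112.

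**Figure D1:**
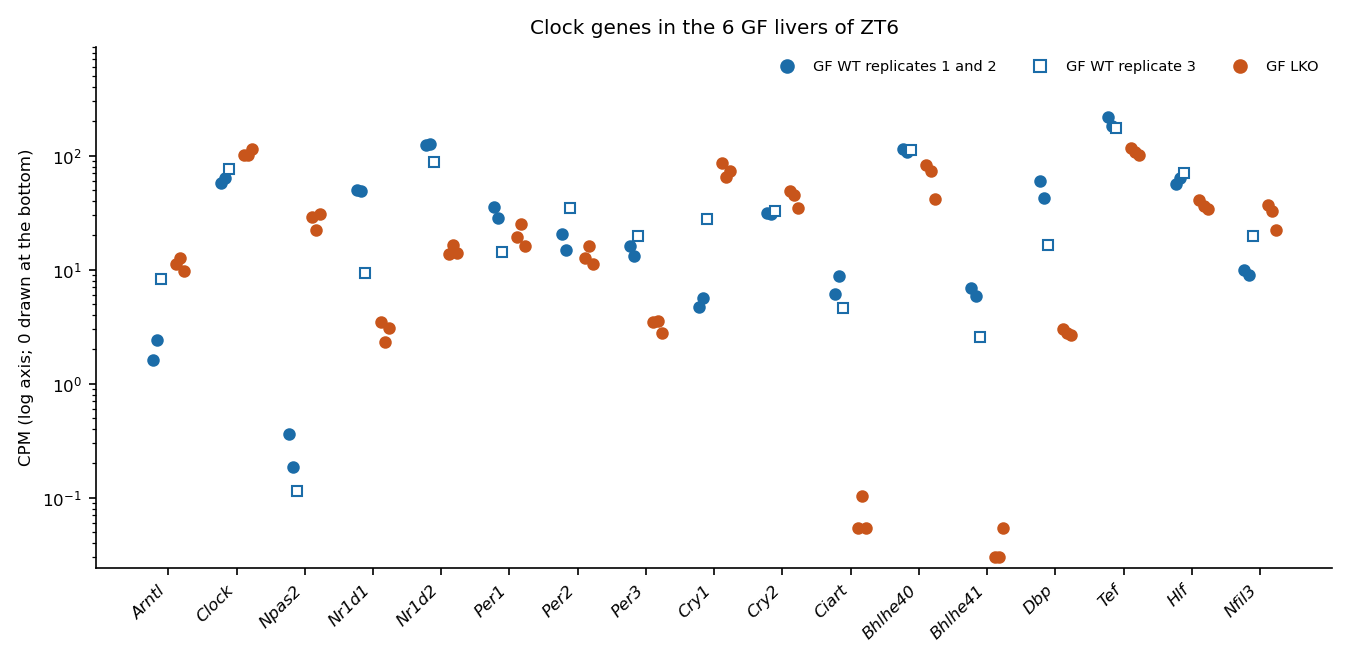
CPM of 17 clock genes (log axis) in each of the 6 GF livers of ZT6, with GF WT in blue, GF LKO in orange and GF WT replicate 3 as an open square. For Npas2, Ciart and Bhlhe41 the genotypes lie far apart, whereas for Arntl, Nr1d1, Cry1, Dbp and Nfil3 the square lies between replicates 1 and 2 of WT and the LKO points.

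Promoters were read for the elements through which the clock factors act, so that the changed genes can be seen with their sequence. Promoters are RefSeq windows of GRCm38.p6, from 250 bases before to 50 after a gene's start, searched on both strands for the E-box CACGTG and for the ROR element TAGGTCA or TGGGTCA. Of the 48 clock genes and genes of largest change, 41 had a promoter in the table, 7 of these held an E-box (17.1%) and 3 a ROR element (7.32%). Over 27025 genes the shares were 8.09% and 7.35%, and over the 10267 tested genes with a promoter 11.6% and 6.40%. Ciart, which was almost silent in LKO livers, held 3 E-boxes between 116 and 44 bases before its start, and Bhlhe41, Cry1, Per1 and both promoters of Tef held 1 each. Gm11454, among the largest increases, and Nr0b2 held 1 each too. No E-box was found in the windows of Nr1d1, Nr1d2, Per3 and Dbp, which were also lower in LKO livers. The windows below are 100 bases long, lie before the RefSeq start, and are printed 5′ to 3′ on the strand of the gene with the element in capitals.
Ciart, chr3:95882256-95882355, minus strand: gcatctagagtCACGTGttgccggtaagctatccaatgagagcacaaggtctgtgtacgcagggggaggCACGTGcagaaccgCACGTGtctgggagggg
Bhlhe41, chr6:145865521-145865620, minus strand: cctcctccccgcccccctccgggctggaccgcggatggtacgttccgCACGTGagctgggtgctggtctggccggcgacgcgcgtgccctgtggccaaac
Tef, upstream promoter, chr15:81802499-81802598, plus strand: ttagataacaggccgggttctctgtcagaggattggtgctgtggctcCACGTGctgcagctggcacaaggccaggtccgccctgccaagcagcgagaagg
Tef, downstream promoter, chr15:81811229-81811328, plus strand: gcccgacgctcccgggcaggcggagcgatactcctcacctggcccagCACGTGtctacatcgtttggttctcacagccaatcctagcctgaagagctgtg
Per1, chr11:69098736-69098835, plus strand: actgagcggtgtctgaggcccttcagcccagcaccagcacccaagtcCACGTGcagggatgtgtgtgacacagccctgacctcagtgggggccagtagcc
Cry1, chr10:85185062-85185161, minus strand: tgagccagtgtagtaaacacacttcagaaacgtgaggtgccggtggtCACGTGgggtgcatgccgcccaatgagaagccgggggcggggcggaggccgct

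Genes with the same element did not share a direction. Ciart, Bhlhe41 and Tef were lower in LKO livers, Cry1 and Gm11454 were higher, and Per1 and Nr0b2 did not pass. Among the genes with a promoter, an E-box was found in 15.6% of 646 lower genes, 9.42% of 552 higher genes and 11.6% of 10267 tested genes. A ROR element was found in 9.13%, 8.70% and 6.40% of the same sets. Without GF WT replicate 3 the E-box shares were 15.9% and 10.4% in the lower and higher genes, and the ROR shares 8.21% and 9.54%. These shares are descriptions of short letter strings, which were not tested as binding sites.

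Arntl, which rose, held a ROR element at base 31 after the start of its downstream promoter, so it is not in a window printed here. Before the start, a ROR element occurred in Nfil3, which rose, and in Cyp3a11, which fell. In the Nfil3 window it reads on the opposite strand, as TGACCTA, at 12 bases before the start.
Nfil3, chr13:52981040-52981139, minus strand: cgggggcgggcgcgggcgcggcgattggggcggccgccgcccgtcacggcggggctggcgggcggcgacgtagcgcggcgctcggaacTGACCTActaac
Cyp3a11, chr5:145879965-145880064, minus strand: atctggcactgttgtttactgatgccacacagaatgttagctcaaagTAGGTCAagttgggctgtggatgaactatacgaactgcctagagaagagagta

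Downstream of the clock, 24 genes known as rhythmic liver outputs were changed in both directions, with 6 higher and 7 lower (25% and 29.2%, against 5.59% and 6.07% of all genes). The same numbers were found without GF WT replicate 3. Rgs16, a regulator of G protein signaling, measured 104, 96.5 and 11.7 CPM in WT and 0.646, 1.86 and 0.378 CPM in LKO livers (-6.18 ± 1.30, adjusted p = 0.0077). Usp2, a deubiquitinase, fell from 30.9, 28.8 and 31.8 CPM to 2.80, 3.47 and 3.29 CPM (-3.26 ± 0.41, adjusted p = 0.000206). The WT and LKO values of both genes were separate, although replicate 3 was far below its fellows for Rgs16 and level with them for Usp2. Noct, a nocturnin that removes phosphate from dinucleotide cofactors, fell by 2.54 on the log2 scale (adjusted p = 0.00399), and Por, the electron donor of microsomal P450 enzymes, by 2.44 (adjusted p = 1.23e-05).

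On the side of the increases, Cdkn1a, the cell cycle inhibitor p21, rose from 2.76, 3.36 and 2.35 CPM to 48.2, 67 and 59.9 CPM (4.37 ± 0.26, adjusted p = 5.93e-07). It was higher in each LKO liver than in any WT liver by more than an order of magnitude. Elovl3, an elongase of very long chain fatty acids, rose by 2.43 ± 0.33 (adjusted p = 0.000364), Insig2, which retains the SREBP precursor in the endoplasmic reticulum, by 1.86 ± 0.14 (adjusted p = 3.2e-06), and the vasopressin receptor gene Avpr1a by 1.19 ± 0.16 (adjusted p = 0.000396).

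Several of the genes with the largest changes were close to absent in 1 genotype. Tox2, a transcription factor of the HMG box class, had 0, 0 and 0.230 CPM in WT and 15, 10.5 and 14.8 CPM in LKO livers (7.28 ± 0.45, adjusted p = 6.37e-07). The long noncoding RNA 4930459C07Rik behaved alike, at 0.240, 0.187 and 0 CPM against 18.7, 26.1 and 23.5 CPM (7.28 ± 0.51). Loxl4, a lysyl oxidase that crosslinks collagen, rose from 0.719, 0.871 and 0.804 CPM to 55, 38.4 and 32.4 CPM (5.70 ± 0.27, adjusted p = 1.68e-07). None of these 3 genes had an LKO value near a WT value. The rule that named them required CPM ranges that do not overlap without GF WT replicate 3, so this separation is no added support.

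Sult1e1, the estrogen sulfotransferase, was high but variable in LKO livers, with 59.7, 23.8 and 110 CPM against 0.719, 2.99 and 0.344 CPM in WT (5.59 ± 0.75, adjusted p = 0.000347). Slc34a2, a phosphate transporter, rose by 4.59 ± 0.44 and Ntrk2, the receptor TrkB, by 4.46 ± 0.59, or 5.67 and 7.30 without GF WT replicate 3. Moxd1, a monooxygenase of the dopamine hydroxylase family, gave 2.22, 46.6 and 0.287 CPM in WT and 559, 253 and 455 CPM in LKO livers. Its WT replicate 2 stood far above the others, and its call (4.69 ± 1.17, adjusted p = 0.0202) was lost without LKO replicate 1 (adjusted p = 0.0511) or WT replicate 1 (adjusted p = 0.0581).

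The largest decreases included the predicted noncoding gene Gm32468, with 355 counts over the WT livers and 0 over the LKO livers. Against a floor of 3 counts over the 3 LKO libraries it was at least 118-fold lower. Its WT levels were 4.73, 3.73 and 12.4 CPM, so this bound rests in large part on replicate 3, and a bound without that library was not computed. Mfsd2a, a transporter of lysophospholipids, fell from 59, 49.8 and 51.7 CPM to 0.377, 2.54 and 2.32 CPM (-4.93 ± 0.57, adjusted p = 0.000107). Mme, the peptidase neprilysin, fell from 55.7, 35 and 114 CPM to 0.969, 2.59 and 2.81 CPM (-5.00 ± 0.44, adjusted p = 1.24e-05). Nat8, an N-acetyltransferase, gave 18.5, 15.4 and 34.4 CPM in WT against 0.323, 0.518 and 0.216 CPM in LKO livers (-5.99 ± 0.38, adjusted p = 6.89e-07). Acot3, a peroxisomal thioesterase, was at 7.13, 1.80 and 28.1 CPM against 0.215, 0.155 and 0 CPM, with a wide spread among WT livers (-6.57 ± 1.07, adjusted p = 0.00144).

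Fatty acid oxidation was the pathway list with the largest share of lower genes among the 17 lists outside the clock. Of 32 genes of mitochondrial oxidation and PPARA targets, 23 were lower and 0 higher (71.9%, against 6.07% lower over all genes), and 31 had a negative value. The median of the list was -0.698, against -0.001 for all genes tested. Without GF WT replicate 3 the number was 16 lower and 0 higher with a median of -0.736, and 15 when only the GF libraries of ZT6 were fitted. Under each of the 6 other settings compared for the lists, 15 to 25 members were lower and 0 higher.

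Cyp4a14, a fatty acid omega-hydroxylase under PPARA, measured 1987, 604 and 836 CPM in WT and 12.8, 106 and 157 CPM in LKO livers (-3.64 ± 0.83, adjusted p = 0.0121). Cyp4a10, its close relative, measured 951, 508 and 461 CPM against 21.3, 110 and 138 CPM (-2.83 ± 0.53, adjusted p = 0.0038). The highest WT and the lowest LKO value of both genes came from replicate 1 of either genotype. Aldh3a2, which oxidizes fatty aldehydes, fell from 504, 443 and 719 CPM to 103, 85.9 and 137 CPM (-2.36 ± 0.20, adjusted p = 8.84e-06).

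Acaa1b, a peroxisomal thiolase, fell from 735, 539 and 1197 CPM to 193, 237 and 272 CPM (-1.82 ± 0.23, adjusted p = 0.000256). Fabp1, the fatty acid binding protein of hepatocytes, fell from 9091, 7095 and 8505 CPM to 2539, 3074 and 3500 CPM (-1.44 ± 0.15, adjusted p = 5.82e-05). The gene of the receptor itself, Ppara, fell by 0.78 on the log2 scale (adjusted p = 0.0106), and Cpt1a, which admits fatty acids to mitochondria, by 0.72 (adjusted p = 0.0159). Both calls were weak, since Ppara was lost without LKO replicate 3 (adjusted p = 0.0525) and Cpt1a without LKO replicate 3 or WT replicate 1 (adjusted p = 0.0692 and 0.0656). Echs1, the enoyl hydratase, was the sole member with a positive value, at 0.08 (adjusted p = 0.68).

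Genes of fatty acid synthesis and triglyceride handling were lower as well, with 12 of 28 lower and 2 higher and a median of -0.793. These shares of 42.9% and 7.1% stand against 6.07% and 5.59% of all genes. The count without GF WT replicate 3 was 12 lower and 3 higher, with a median of -0.543. Thrsp, a lipogenic nuclear protein, gave 578, 806 and 2202 CPM in WT and 95.1, 75.7 and 81.4 CPM in LKO livers (-3.83 ± 0.44, adjusted p = 0.000106, and -3.04 without replicate 3). Elovl6, a fatty acid elongase, fell by 1.88 on the log2 scale (adjusted p = 0.00134), and by 1.30 without replicate 3. Fasn, the fatty acid synthase, measured 202, 214 and 661 CPM in WT and 134, 100 and 90.5 CPM in LKO livers. Its difference of -1.73 ± 0.40 (adjusted p = 0.0123) shrank to -0.95 without replicate 3 (adjusted p = 0.0219), and was lost without LKO replicate 2 or 3 (adjusted p = 0.0556 and 0.0559). Scd1, the stearoyl-CoA desaturase, was at -0.81 and did not pass (adjusted p = 0.0683), but did with DESeq2 (adjusted p = 0.0145) and with no filter.

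The 2 higher genes of this list encode lipases, Lpl and Lipc. Lpl, the lipoprotein lipase, is low in the hepatocytes of adult liver and, at chromosome 8 (68880491 to 68907448), measured 79.0, 70.9 and 15.4 CPM in WT against 790, 906 and 822 CPM in LKO livers. Every LKO liver held about an order of magnitude more Lpl than any WT liver (3.93 ± 0.45, adjusted p = 0.000103). Lipc, the hepatic lipase, rose from 251, 234 and 201 CPM to 420, 425 and 426 CPM (0.89 ± 0.11, adjusted p = 0.000182).

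Of 29 genes of glucose uptake, glycolysis and glycogen, 7 were lower and 2 higher (24.1% and 6.9%, against 6.07% and 5.59% of all genes). The numbers were the same without GF WT replicate 3. Gys2, the liver glycogen synthase, fell from 427, 336 and 431 CPM to 104, 93.1 and 103 CPM (-2.0 ± 0.13, adjusted p = 6.84e-07). Slc2a2, the glucose transporter GLUT2, fell from 544, 562 and 481 CPM to 257, 235 and 286 CPM (-1.03 ± 0.13, adjusted p = 0.000223). Eno1, the glycolytic enolase, fell by 0.64 on the log2 scale (adjusted p = 0.000758), and Gckr, the regulator of glucokinase, rose by 0.70 ± 0.12 (adjusted p = 0.00231).

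A pair of regulators of sugar use in this list were called on less stable values. Pfkfb3, which makes the activator of phosphofructokinase, gave 72.2, 77.2 and 10.4 CPM in WT and 6.24, 12.2 and 8.74 CPM in LKO livers, so that replicate 3 fell inside the LKO range (-2.55 ± 0.63, adjusted p = 0.0187, and -3.04 without it). Pdk4, which inhibits pyruvate dehydrogenase, rose from 3.29, 3.55 and 13.4 CPM to 36.4, 27.2 and 16.5 CPM (1.97 ± 0.51, adjusted p = 0.0234, and 2.96 without replicate 3). The call on Pfkfb3 was lost without LKO replicate 1 or 3 or WT replicate 1 or 2 (adjusted p from 0.0544 to 0.0823), and that on Pdk4 without LKO replicate 1 or 2 or WT replicate 1 or 2 (adjusted p from 0.0603 to 0.0886).

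Gluconeogenesis showed fewer changes, with 4 of 20 genes lower (20%, against 6.07% of all genes) and 0 higher, and 2 lower without GF WT replicate 3. Slc37a4, which carries glucose 6-phosphate into the endoplasmic reticulum, fell from 249.3, 251 and 285 CPM to 117, 135 and 159 CPM (-0.94 ± 0.17, adjusted p = 0.00358). Creb3l3, a membrane-bound transcription factor of hepatocytes, fell by 0.60 on the log2 scale (adjusted p = 0.0145), a call lost without LKO replicate 2 or 3 or WT replicate 1 (adjusted p from 0.0503 to 0.0591). The enzymes that define the pathway did not pass in the main fit. Pck1, phosphoenolpyruvate carboxykinase, was at 3693, 3980 and 1054 CPM in WT and 2768, 2397 and 2531 CPM in LKO livers. Its value of -0.18 (adjusted p = 0.809) was -0.58 without replicate 3 (adjusted p = 0.0825, or 0.0185 when only GF libraries of ZT6 were fitted), and turned to 0.02 and 0.11 without WT replicate 1 and 2. G6pc was at 0.58 (adjusted p = 0.197) and Fbp1 at -0.26 (adjusted p = 0.26). With no filter on low counts G6pc passed (0.58, adjusted p = 0.00131).

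Among 32 xenobiotic receptor and P450 genes, 9 were lower and 4 higher (28.1% and 12.5%, against 6.07% and 5.59% of all genes). Without GF WT replicate 3 the numbers were 10 and 5. Cyp3a11, a P450 that clears drugs and bile acids (chromosome 5, 145854426 to 145879964), measured 745, 585 and 6114 CPM in WT and 189, 182 and 124 CPM in LKO livers. Replicate 3 was far above its fellows, so the size of the difference rests on it, -3.92 ± 0.71 with it (adjusted p = 0.003) and -2.01 without it (adjusted p = 2.17e-05). Cyp2a5, the coumarin hydroxylase, fell from 314, 295 and 505 CPM to 57, 37.3 and 35.9 CPM (-3.10 ± 0.31, adjusted p = 3.78e-05). The carboxylesterase Ces1d fell by 2.23 on the log2 scale (adjusted p = 0.00153), and by 1.45 without replicate 3.

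Other P450 genes rose in the same livers. Cyp2c55 measured 7.91, 8.58 and 12.6 CPM in WT and 81.6, 98.0 and 75.2 CPM in LKO livers (3.13 ± 0.24, adjusted p = 2.98e-06), and Cyp2c70, which hydroxylates bile acids to muricholic acids, rose by 1.05 ± 0.20 (adjusted p = 0.00472). Of 35 genes of conjugation and drug transport, 8 were higher and 10 lower (22.9% and 28.6%, against 5.59% and 6.07% of all genes). The mu class glutathione transferases Gstm2 and Gstm3 rose by 2.55 ± 0.24 and 2.54 ± 0.28 (adjusted p = 2.56e-05 and 7.1e-05), while the theta class Gstt2 fell by 2.46 on the log2 scale (adjusted p = 6.3e-05). Gsta1, of the alpha class, had 33 counts over the WT livers and 1 over the LKO livers (ratio 32.8, interval 5.50 to 1335). Members of the Gst, Cyp2c, Cyp3a and Cyp4a families resemble each other closely, and reads that fit several copies were not counted, so their levels are uncertain.

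Steroid and bile acid genes changed singly. Of 22 bile acid genes, 2 were higher and 1 lower (9.1% and 4.5%, near the 5.59% and 6.07% of all genes), among them Cyp7b1, the oxysterol hydroxylase, which rose by 1.19 ± 0.24 (adjusted p = 0.00579), and Klb, the coreceptor for FGF15 and FGF21, which fell by 0.75 on the log2 scale (adjusted p = 0.00684, or 0.0512 when only the GF libraries of ZT6 were fitted). Insig2 was the 1 higher gene among 25 of cholesterol synthesis and uptake, with 0 lower (4% and 0%, against 5.59% and 6.07% of all genes). Of 27 genes known for sex bias or growth hormone dependence, 6 were higher and 6 lower (22.2% each, against 5.59% and 6.07% of all genes), all livers being male. Cyp17a1, of androgen synthesis, fell from 10.9, 8.71 and 14.1 CPM to 0.699, 1.04 and 1.19 CPM (-3.52 ± 0.38, adjusted p = 6.52e-05), and Mup3, a major urinary protein, did not pass (-0.15, adjusted p = 0.599).

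Of 34 genes of amino acid breakdown and the urea cycle, 5 were higher and 3 lower (14.7% and 8.8%, against 5.59% and 6.07% of all genes), with a median of 0.217. Bhmt, which remethylates homocysteine, measured 708, 970 and 388 CPM in WT and 1907, 1958 and 1917 CPM in LKO livers (1.48 ± 0.28, adjusted p = 0.00383). Kynu, the kynureninase, rose by 0.75 ± 0.14 (adjusted p = 0.00447). Asl, the argininosuccinate lyase, fell by 1.07 on the log2 scale (adjusted p = 0.00528) and the proline dehydrogenase gene Prodh2 by 0.99 (adjusted p = 0.00013), whereas the first urea cycle enzyme, Cps1, did not pass (0.24, adjusted p = 0.309).

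The count of heat shock genes depended on the libraries and on the fit. Of 20 genes of heat shock and temperature response, 7 were lower and 1 higher (35% and 5%, against 6.07% and 5.59% of all genes). The number lower was 2 without GF WT replicate 3, 3 with a replicate block and 4 when only the GF libraries of ZT6 were fitted. It was 9 with DESeq2 and 11 with no filter on low counts, and 1 gene was higher in each of these fits. Dnaja1, a cochaperone of HSP70, measured 116, 110 and 208 CPM in WT and 66.7, 75.1 and 77 CPM in LKO livers (-0.99 ± 0.22, adjusted p = 0.0108, and -0.63 without replicate 3), and its call was lost without LKO replicate 1 (adjusted p = 0.0502). Cirbp, an RNA binding protein that rises in the cold, went from 12, 10.8 and 11.1 CPM to 20.4, 22.6 and 22.2 CPM (0.94 ± 0.11, adjusted p = 0.000113), with tight values in both genotypes.

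Of 17 glucocorticoid-responsive genes, 2 were higher and 2 lower (11.8% each, against 5.59% and 6.07% of all genes), and Fkbp5, a cochaperone of the glucocorticoid receptor, fell from 43.1, 96.9 and 84.3 CPM to 14.0, 21.9 and 15.2 CPM (-2.14 ± 0.36, adjusted p = 0.00184). Of 22 genes of replication and the cell cycle, 2 were higher and 3 lower (9.1% and 13.6%, against 5.59% and 6.07% of all genes). Besides Cdkn1a, the replication helicase subunit Mcm6 rose by 0.83 ± 0.20 (adjusted p = 0.0188), a call lost without LKO replicate 1 or 3 or WT replicate 2 (adjusted p from 0.0564 to 0.0641). Cyclin E1 (Ccne1) fell from 1.80, 1.49 and 2.01 CPM to 0, 0 and 0.27 CPM (-4.23 ± 0.64, adjusted p = 0.000878), and cyclin D1 (Ccnd1) by 1.44 on the log2 scale (adjusted p = 0.00365).

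Of 34 acute phase and interferon genes, 5 were lower and 1 higher (14.7% and 2.9%, against 6.07% and 5.59% of all genes). The chemokine gene Cxcl1 fell by 2.31 on the log2 scale (adjusted p = 0.00848), and Itih3, which stabilizes the extracellular matrix, rose by 0.86 ± 0.20 (adjusted p = 0.0126), a call lost without LKO replicate 1 (adjusted p = 0.0551). Of 20 heme and iron genes, 2 were lower (10%, against 6.07% of all genes) and 0 higher, but 3 and 1 without GF WT replicate 3. Cpox, of heme synthesis, fell by 0.63 on the log2 scale (adjusted p = 0.00969). Blvrb, a biliverdin reductase, fell by 1.13 (adjusted p = 0.018), or 0.55 without replicate 3, and was lost without LKO replicate 1, 2 or 3 (adjusted p from 0.0516 to 0.0765). Of 66 cytosolic ribosomal protein genes, 4 were higher (6.1%, against 5.59% of all genes) and 0 lower, and 0 passed when only the GF libraries of ZT6 were fitted.

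**Figure D2:**
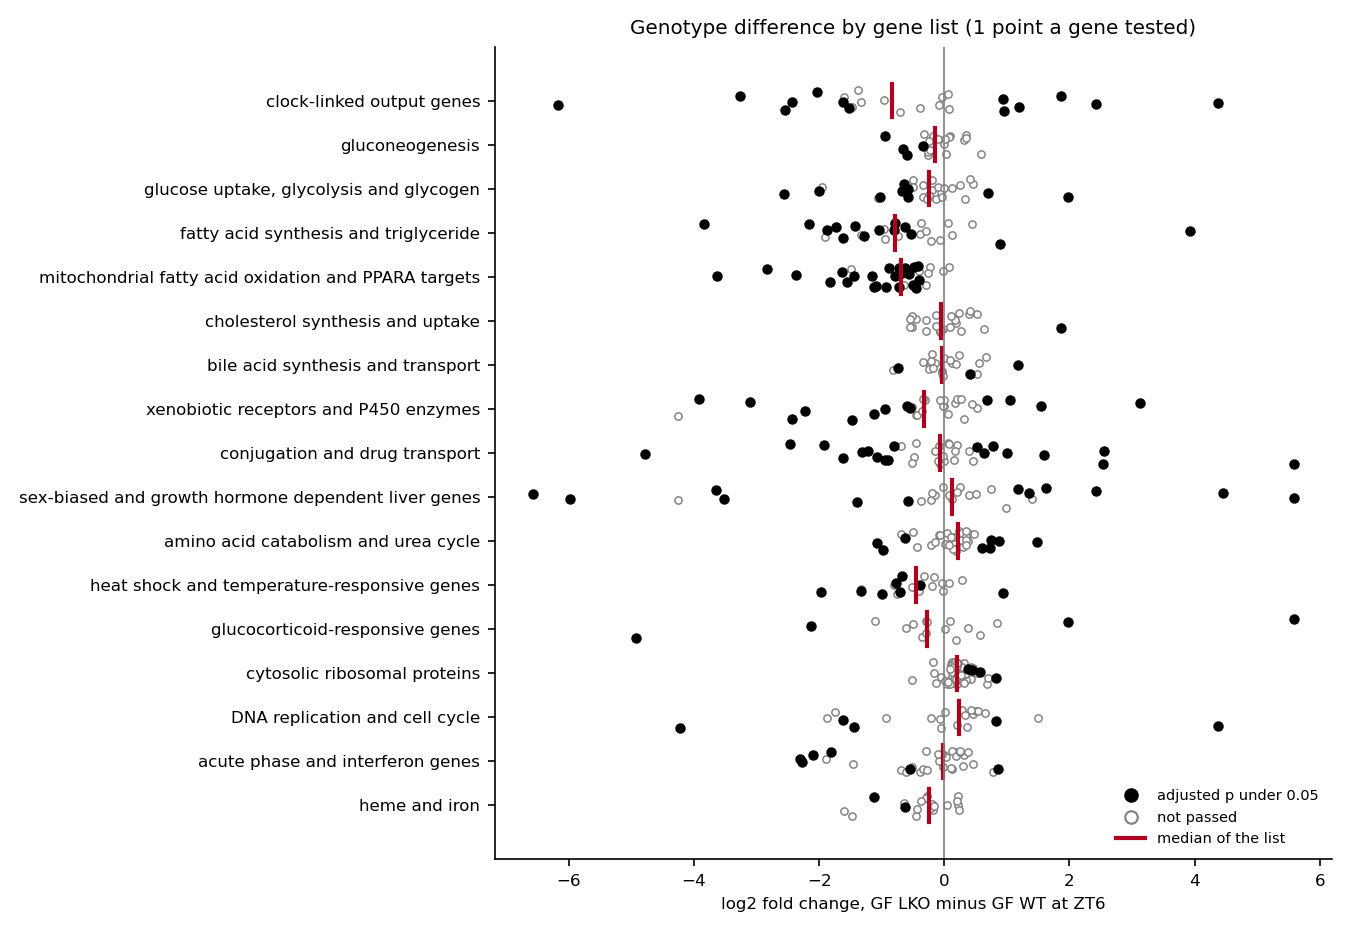
Log2 fold change of GF LKO against GF WT at ZT6 for every tested gene of 17 lists, 1 point a gene, filled where the adjusted p was under 0.05, with the median of each list as a red bar. Fatty acid oxidation and PPARA targets lie almost wholly below 0 (23 of 32 filled), lipogenic genes mostly so (12 of 28), and conjugation and sex-biased genes spread to both sides.

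Albumin, whose promoter drives Cre, was itself lower. Alb, on chromosome 5 (90460897 to 90476602), measured 116325, 94012 and 112892 CPM in WT and 25468, 28782 and 33153 CPM in LKO livers (-1.89 ± 0.20, adjusted p = 5.47e-05). It took 8.39% to 10.55% of the counts of WT libraries and 2.58% to 3.25% of LKO libraries. Of 9 hepatocyte markers tested 3 were lower (33.3%, against 6.07% of all genes), Alb, Hnf4a (-0.55) and Ttr (-0.44). Ttr was lost without GF WT replicate 3 (adjusted p = 0.0842). The summed level of the list ran from 143836 to 163930 CPM in WT and from 67410 to 76345 CPM in LKO livers. Alb alone made up most of the WT sums and most of their difference from LKO, and 6 of the 9 markers did not pass. The markers of Kupffer cells summed to 321 to 378 CPM against 252 to 320 CPM, and those of lymphocytes to 5.63 to 11.1 CPM against 12.5 to 19.4 CPM, with 0 of 9 and 0 of 5 genes passing. Endothelial (159 to 184 against 163 to 196 CPM), stellate (280 to 327 against 308 to 414 CPM) and neutrophil markers (1.03 to 2.10 against 0.269 to 1.73 CPM) overlapped between genotypes, with 0 passing.

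Cholangiocyte markers summed to 27.6 to 57.9 CPM in WT and 75.9 to 92.1 CPM in LKO livers, with 1 of 5 higher (20%, against 5.59% of all genes). This was Spp1 (1.10, adjusted p = 0.0253, or 0.0779 without replicate 3, when Sox9 passed), while the defining Krt19 and Krt7 were at -0.14 and -0.55 and did not pass. Red blood cell markers summed to 276 to 288 against 188 to 272 CPM, with 1 of 5 lower (20%, against 6.07% of all genes), Alas2 (-0.59, adjusted p = 0.0344, or 0.0562 without replicate 3). Pancreatic acinar markers summed to 35.9 to 55.4 against 107 to 117 CPM, with 1 of 2 tested higher (50%, against 5.59% of all genes). This was Cela1 (1.22), while the defining Prss1, Cpa1, Pnlip and Amy2a5 were at 0 in all 6 libraries. Adipocyte markers ran from 3.17 to 9.59 against 0.861 to 1.89 CPM through Cidec alone of the tested markers, which is also a lipid droplet gene of the liver, with Plin1, Lep and Retn at 0. Hnf4a, Ttr, Spp1, Sox9, Krt19, Krt7, Alas2 and Cela1 were named after their values were seen. Part of these marker differences moved with genotype, and their part in the gene lists above was not tested.

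The genotype effect in GF mice was set beside that in SPF mice, which have a microbiota. At ZT6, 988 genes changed in SPF mice (7.26%), 526 higher (3.87%) and 462 lower (3.39%) in LKO livers, against 1587 in GF mice, in 1 fit with a shared spread. Of the 1587 genes called in GF mice, 1542 (97.2%) had the same sign in SPF mice. The share of same signs over all genes tested was not computed, so this share has no background to be read against. The genes called in both with the same sign numbered 715, which were 45.1% of the GF calls and 72.4% of the SPF calls, and 0 were called with opposite signs. Fatty acid oxidation genes were lower in 23 of 32 cases in GF and 8 of 32 in SPF mice, with medians of -0.698 and -0.306.

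A test of the difference between the GF and SPF effects called 0 of 13609 genes by edgeR (0%), the lowest adjusted p being 0.761, while 774 genes had an unadjusted p under 0.05. DESeq2 called 7. The larger number of calls in GF mice was itself not tested. Ift57, a protein of ciliary transport, was among the genes of lowest p, with 0.419, 0.498 and 0.574 CPM in GF WT and 1.99, 2.64 and 3.67 CPM in GF LKO livers, and no such rise in SPF livers (2.46 in GF and -0.17 in SPF, difference 2.62, adjusted p = 0.761). Inhbe, which encodes the hepatokine activin E, gave -2.32 in GF and -0.30 in SPF mice, and Nat8 -5.99 and -3.43. Tsc22d1, a leucine zipper protein, gave -0.06 and 1.52, Spsb4 -3.71 and -1.53, Cnp 1.99 and 1.22, and 1700010I14Rik 5.82 and 3.71. DESeq2 called the difference for Ift57, Inhbe, Nat8 and Tsc22d1, with adjusted p of 0.0287, 0.00691, 0.00691 and 0.00691.

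Cyp3a11 was the single gene called by edgeR once GF WT replicate 3 was left out, and 1 of 2 called with it in a fit of all 72 libraries. In SPF livers it measured 5146, 4252 and 4642 CPM in WT and 6706, 5395 and 5512 CPM in LKO, so its level was high in both genotypes. In GF livers the WT level without replicate 3 was 745 and 585 CPM and the LKO level lower still. The genotype effect was -3.92 in GF and 0.33 in SPF mice, a difference of -4.24 ± 0.93 (adjusted p = 0.761, or 0.00238 in the fit of all 72 libraries) with replicate 3 and of -2.34 (adjusted p = 0.00771) without it. Across the other 5 times GF WT means of Cyp3a11 lay between 537 and 851 CPM and GF LKO means between 129 and 280 CPM, and the value of 6114 CPM in replicate 3 lay in the SPF range. At ZT14, SPF WT replicate 3 measured 372 CPM against 5018 and 5486 CPM in its fellows.

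**Figure D3:**
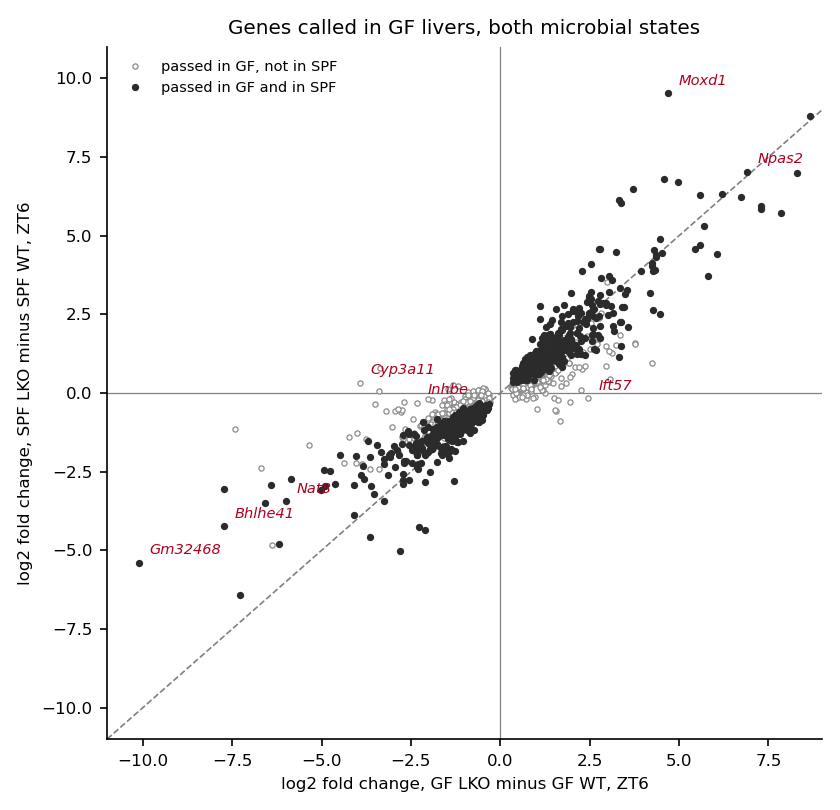
Log2 fold change of LKO against WT at ZT6 in SPF mice (y axis) plotted over that in GF mice (x axis) for the genes called in GF mice, filled where SPF passed too, with a dashed line of equality. Most points share their sign (97.2%), and Cyp3a11 and Ift57 lie off the line near 0 on the SPF axis.

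Whether the ZT6 effect was particular to that hour was tested against the mean genotype effect at the other 5 times within the 36 GF libraries. The difference passed for 110 of 13806 genes (0.797%), 58 more positive (0.42%) and 52 more negative (0.377%) at ZT6, and for 100 of 14065 (0.711%) without GF WT replicate 3. The number went down to 40 without LKO replicate 1 and 65 without LKO replicate 2, and up to 190 without WT replicate 2. Most called genes kept their direction through the day, since 532 of 758 higher genes (70.2%) and 596 of 822 lower genes (72.5%) had the same sign at all 5 other times, while 4391 of 13453 tested genes (32.6%) had 1 sign at those 5 times.

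The D-box activator genes Dbp and Tef were among the 110, as was Nfil3, while Hlf did not pass. Dbp in GF WT livers averaged 0.974 ± 0.0955 CPM at ZT2 (SD, n = 3), 39.6 ± 21.7 at ZT6, 79.7 ± 22.1 at ZT10 and 0.903 ± 0.17 at ZT22, and in GF LKO livers it stayed between 2.17 and 5.55 CPM at all times. The genotype effect was thus -3.80 at ZT6 and 1.42 at ZT22, and ZT6 differed from the mean of the other times by -3.30 (adjusted p = 6.99e-06). Tef did the same on a smaller scale (-0.85, adjusted p = 7.11e-05), with 42.7 ± 3.80 CPM at ZT2 and 271 ± 9.96 CPM at ZT10 in WT against 94.4 to 118 CPM in LKO livers. At ZT10 both genes were thus far below WT in LKO livers as well, so their lowering was not confined to ZT6.

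Usp2 (-3.05, adjusted p = 1.23e-05), Thrsp (-2.59, adjusted p = 9.98e-05) and Mtss1, which links membranes and actin (-1.23, adjusted p = 9.98e-05), were lowered at ZT6 beyond the mean of the other times. The value for Thrsp was -1.81 without GF WT replicate 3. Clpx, a mitochondrial unfoldase, differed upwards by 1.21 (adjusted p = 6.99e-06). Clpx fell in WT livers from 544 ± 109 CPM at ZT2 to 140 ± 20.2 at ZT6 and 82.6 ± 5.51 at ZT10, whereas LKO livers held 479 to 762 CPM at all times. Asap2, which acts on ARF proteins (1.95, adjusted p = 0.000139), and Mreg, of melanosome transfer (0.88, adjusted p = 0.00017), were raised at ZT6 too. Against ZT2 and ZT10 alone Clpx (0.70, adjusted p = 0.0798) and Mreg (0.32, adjusted p = 0.492) did not pass.

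Within the loop, the effect on Arntl changed sign over the day. In GF WT livers it went down from 29.8 ± 3.39 CPM at ZT2 through 4.08 ± 3.59 CPM at ZT6 to 0.607 ± 0.319 CPM at ZT10, and back up through 10.4 ± 0.672 CPM at ZT14 to 36 ± 3.98 CPM at ZT22, and in LKO livers it stayed between 8.51 and 11.3 CPM. LKO was therefore above WT at ZT6 and ZT10 (1.45 and 3.80) and below it at ZT2, ZT18 and ZT22 (-1.43, -1.46 and -1.67). The ZT6 effect differed from the others by 1.65 (adjusted p = 0.0096), and by 0.26 when the others were ZT2 and ZT10 alone (adjusted p = 0.896).

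Ciart (-4.80, adjusted p = 0.00277), Per3 (-1.44, adjusted p = 0.00342), Bhlhe40 (-1.17, adjusted p = 0.0096), Nr1d2 (-0.94, adjusted p = 0.00277) and Ccne1 (-3.63, adjusted p = 0.00523) had a more negative effect at ZT6 than at the mean of the other times. Against ZT2 and ZT10 alone, Per3 and Bhlhe40 still passed, while Nr1d2 went to -0.34 (adjusted p = 0.602) and Ciart (-4.80, adjusted p = 0.0969) and Ccne1 (-3.13, adjusted p = 0.123) kept most of their size but did not pass. Bhlhe41 (-4.82, adjusted p = 0.0449), Nfil3 (1.23, adjusted p = 0.0204), Per2 (-0.97, adjusted p = 0.0366), Npas2 (2.43, adjusted p = 0.0136) and Cirbp (0.86, adjusted p = 0.0379) also passed, but each was lost on leaving out at least 1 library and against ZT2 and ZT10 alone. Npas2 (adjusted p = 0.0817), Per2 (0.272) and Cirbp (0.093) were lost without GF WT replicate 3, Per2 also without LKO replicate 1 or 3, and Cirbp without any of the 6. Bhlhe41 was lost without LKO replicate 1 or 2 or WT replicate 1, and Nfil3 without LKO replicate 1 or 2 or WT replicate 1 or 2. Nr1d1 (-1.73, adjusted p = 0.112) and Cry1 (1.36, adjusted p = 0.0605) did not pass.

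**Figure D4:**
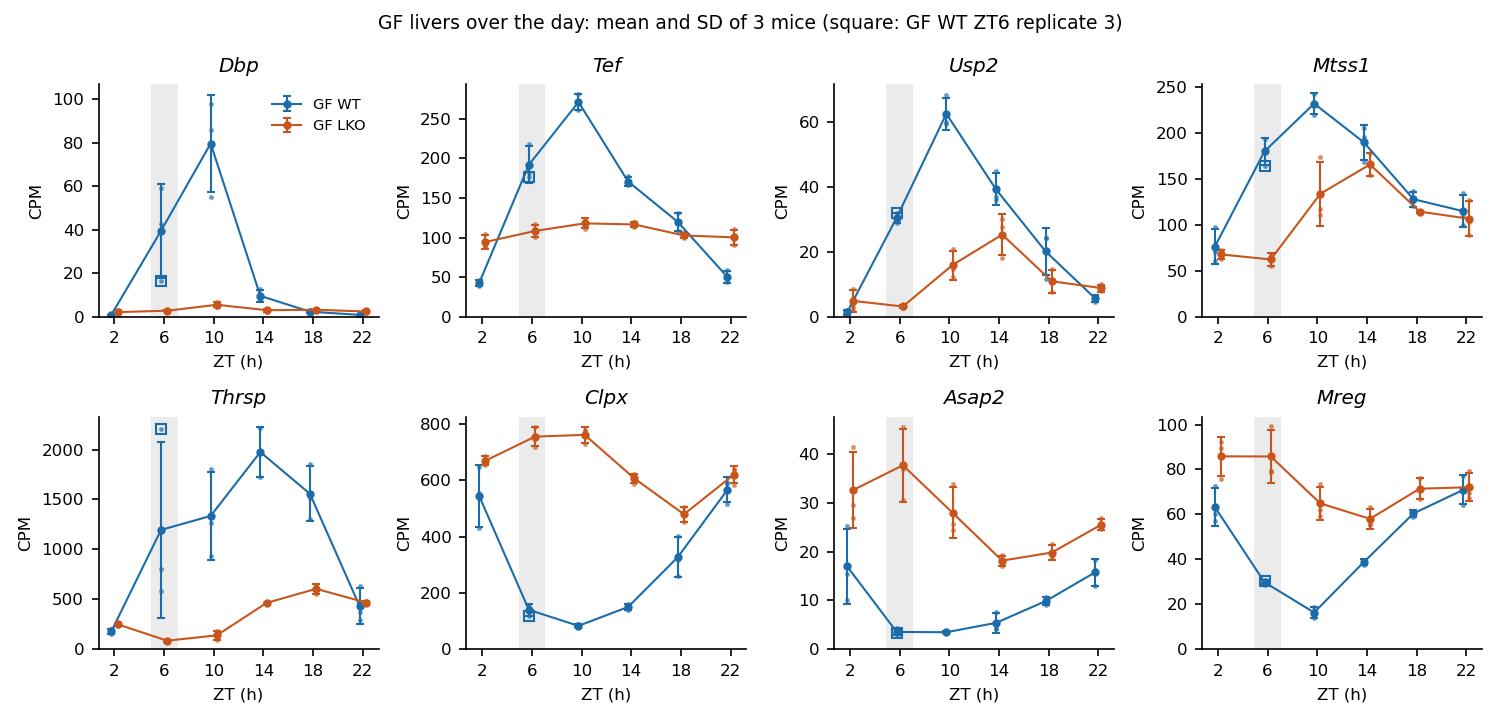
Mean and SD of 3 mice in CPM over 6 ZT for 8 genes whose GF genotype effect at ZT6 differed from its mean at the other times, with ZT6 shaded, GF WT in blue, GF LKO in orange and GF WT ZT6 replicate 3 as a square. Dbp, Tef, Usp2, Mtss1 and Thrsp rise through the light phase in WT alone or more than in LKO, and Clpx, Asap2 and Mreg fall at that time in WT while LKO stays high.

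The genes changed at ZT6 had characteristic times of day in normal mice, which were read from SPF WT livers, a set that, as labelled, shares no library with the GF comparison. Whether GF WT ZT6 replicate 3, which was nearest to SPF WT ZT14, and SPF WT ZT14 replicate 3, with its Cyp3a11 level in the GF range, were exchanged was not tested. Of all tested genes, 14.1% had their highest SPF WT mean at ZT2 and 14.6% at ZT22. Of the genes higher in GF LKO livers, 23.5% were highest at ZT2 and 39.2% at ZT22. Of the genes lower in GF LKO livers, 3.9% and 4.5% were highest at those times, while 34.7% were highest at ZT10, against 19.6% of all tested genes and 8.7% of the higher genes. At ZT6 itself the shares were 21.1% of all, 12.6% of higher and 16.5% of lower genes, but 24.3% of the lower genes called without GF WT replicate 3.

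The shares at ZT22 and ZT10 moved little without SPF WT ZT14 replicate 3, at 38.9% of the higher genes for ZT22 and 32% of the lower genes for ZT10. With genes called without GF WT replicate 3 the shares were 40.2% and 32.9%, and at ZT18 16% of the higher genes in place of 9.6%. Of the lower genes in that set 17.7% were highest at ZT18 in place of 22.6%, against 15.5% of all tested genes. Without SPF WT ZT14 replicate 3 the lower genes had 23.2% at ZT14, in place of 17.8%, and 20.2% at ZT18. These are counts of genes, which are not independent of each other, and no test was made on them.

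**Figure D5:**
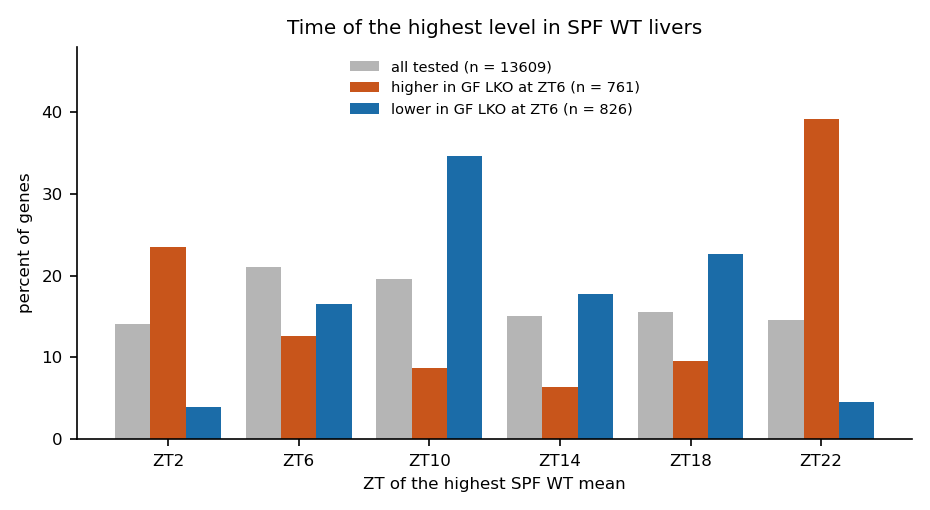
Percent of genes (y axis) by the ZT of their highest SPF WT mean (x axis), for all tested genes, genes higher in GF LKO livers and genes lower in GF LKO livers at ZT6. Higher genes pile up at ZT22 (39.2%) and ZT2 (23.5%), and lower genes at ZT10 (34.7%). The ZT18 share of lower genes (22.6%) was 17.7% for those called without GF WT replicate 3, against 15.5% of all tested genes.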

How the data were processed

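RNA was taken from whole livers, made into stranded mRNA libraries and sequenced from a single end. The authors demultiplexed the reads with bcl2fastq, aligned them with STAR 2.6.1b to mm10 and counted them per gene with featureCounts 2.0.0 on the exons of Ensembl release 97, and the deposited values are these raw counts, without normalization. Reads that mapped to several places or overlapped several genes were not counted and the strand was not used, so counts are uncertain for close paralogs, for genes that overlap and for antisense pairs. Of 55573 genes, 55394 had a symbol and 22224 had no count in any library. Libraries were assigned by their labels, and 0 columns were left unused.

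Counts were tested with edgeR 4.0.16 (R 4.3.3), with TMM factors, the filterByExpr filter on low counts, quasi-likelihood F tests, and p-values adjusted after Benjamini and Hochberg with a threshold of 0.05. The GF, SPF and GF against SPF contrasts came from 1 fit of the 12 libraries of ZT6 with 4 group means, and ZT6 against the other times from the 36 GF libraries with 12 group means. CPM used TMM factors of all 72 libraries. Tables, intervals and figures were made in Python 3.11.15 with pandas 2.3.3, scipy 1.17.1 and matplotlib 3.10.9. The model fits were tested on simulated data first. A ratio against 1 to 3 counts has an exact interval, and a fold against 0 uses a floor of 3 counts, both covering counting error only. Alternatives were DESeq2 1.42.0, RLE factors, no filter, a replicate block, other sets of libraries and leaving out each replicate.

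The comparison, the gene lists and the rule for named genes were chosen with earlier results of these data known. The rule names the 12 largest increases and 12 largest decreases that passed with and without GF WT replicate 3, whose CPM ranges do not overlap once that library is left out and whose mean log2 CPM is 1 or more. It also names all clock genes (some genes that the rule names are not reported here), up to 4 genes in each direction and up to 2 unchanged genes of each list, the 8 genes of lowest p in either difference test and 10 genes fixed by name, and the text gives a selection of them. Aldoa, Hjv and Fcn3 were not matched to an identifier and are not analysed here.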

Additional observations from a re-analysis of the deposited data

Results flagged for a closer look

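The genotype effect at ZT6 in GF mice differed from the mean effect at the other 5 times, by the test of the difference itself, for 110 genes. Among the genes named, the clock genes with a more negative effect at ZT6 were Bhlhe41 (-4.82), Ciart (-4.80), Dbp (-3.30), Per3 (-1.44), Bhlhe40 (-1.17), Per2 (-0.97), Nr1d2 (-0.94) and Tef (-0.85), and those with a more positive effect were Npas2 (2.43), Arntl (1.65) and Nfil3 (1.23). Outside the clock the difference was -3.63 for Ccne1, -3.05 for Usp2, -2.59 for Thrsp and -1.23 for Mtss1, and 1.95 for Asap2, 1.21 for Clpx, 0.88 for Mreg and 0.86 for Cirbp. The genotype effect on Cyp3a11 at ZT6 differed between GF and SPF mice by -2.34 when GF WT replicate 3 was left out, a fit that called 1 gene. Why the effects differ was not tested.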

How the results depend on the processing

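The 1587 genes changed at ZT6 became 935 when only the 6 GF libraries were fitted, and 1059 to 1458 on leaving out 1 replicate at a time, and the 720 genes with a change of at least 2-fold became 578 to 755. The count of 0 for the difference between GF and SPF mice became 7 with DESeq2, 319 with no filter on low counts, 2 with all 72 libraries and 0 to 1 on leaving out a replicate (1 without GF WT replicate 3). The count of 110 for ZT6 against the other times became 275 with DESeq2, 625 with no filter, 12 against ZT2 and ZT10 alone and 40 to 190 on leaving out a replicate. With the 6 GF libraries alone, Arntl, Timeless, Fbxl21, Cpt1a, Pdk4, Creb3l3, Klb, Moxd1 and Blvrb kept their direction but were not called (adjusted p from 0.0512 to 0.122). Some of these fits held fewer libraries or times, and the cause of the changes was not tested. With the replicate number as a block the counts were 1275, 652, 0 and 103, and the call was lost for Nfil3 in the main comparison and Cirbp in the ZT6 difference. Same-numbered libraries did not deviate together (median correlation -0.073 over 18 pairs, against 0.03 over 36 pairs of different numbers), so the numbers were not taken as pairs. On leaving out 1 replicate, Pck1 (main value -0.18) ranged from -0.58 to 0.11, above 0 without WT replicate 1 (0.02) or 2, and Tsc22d1 (-0.06) from -0.22 to 0.16, above 0 without LKO replicate 2 (0.04) or WT replicate 3, or at 0.17 without the latter among GF libraries alone. Of the 1305 alternative values computed for 109 named genes in the main comparison, 1235 kept direction and call, 51 lost the call, 14 gained it and 5 turned sign. The alternatives on peak times and without GF WT replicate 3 for genes called were added after seeing the data. With 3 libraries a side, differences below about the size of the replicate spread could not be detected, and genes with few counts are least certain.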
